A study of Drosophila melanogaster with 8 samples.

Results

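The genes described here encode subunits of the proteasome of Drosophila melanogaster. They were chosen by name, as the genes whose FlyBase symbol starts with Prosalpha, Prosbeta, Rpn or Rpt, and 48 of the 13776 genes in the expression tables met this rule. They comprise 25 genes of the core particle (14 subunits and 11 paralogs) and 23 of the regulatory particle (18 subunits and 5 paralogs). A paralog is here a member whose symbol carries R or T after the subunit number, and every other member is called a subunit. The 48 genes lie on the chromosome arms 2L (8 genes), 2R (13), 3L (7), 3R (14) and X (6).

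RNA was measured in whole ovaries of females aged 0 to 4 days. The HP1a knockdown group holds 2 libraries from F1 females of a cross between tj-Gal4 and HP1a RNAi flies, and the control group holds 2 libraries from F1 females of tj-Gal4 crossed to line #60000 of the VDRC stock centre. Both groups carry tj-Gal4, a driver active in somatic cells of the ovary, so the knockdown is aimed at those cells while germline RNA is measured with theirs. The groups differ in the line crossed to the driver as well as in the knockdown, and these cannot be told apart. In bulk RNA, fewer cells of a type and less RNA per cell cannot be told apart either. The series also holds 4 DamID samples, 2 of Dam-HP1 and 2 of Dam alone, which are not used for these genes.

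The counts summed to 18671641 and 38330975 in knockdown 1 and knockdown 2, and to 20633184 and 21862070 in control 1 and control 2. The transcript of HP1a, Su(var)205, stood at 224 and 236 CPM in the knockdown libraries and at 253 and 229 CPM in the controls, so the libraries are called knockdown after their labels (log2 fold change -0.06, SE 0.11, adjusted p = 0.677 by edgeR's quasi-likelihood test). CPM are counts per 1000000 after scaling by TMM. Germline markers were present as in ovary, summing to 989 and 1010 TPM (transcripts per 1000000, a level per length) in the knockdown libraries and to 995 and 811 TPM in the controls. Most of that sum was osk, and of the 6 genes measured bam and BicD were called higher and aub and grk lower (edgeR adjusted p under 0.05). Follicle cell markers summed to 65.7 and 60.9 TPM in the knockdown libraries and to 191 and 126 TPM in the controls. Fas3, which was not called, made up most of the sum in the knockdown libraries, and the other 5 (tj, eya, mirr, cas and peb) were called lower, by 3.78-fold (peb) to 15.9-fold (cas). Eggshell genes of late follicle cells summed to 3449 and 26767 TPM in the knockdown libraries and to 25630 and 82294 TPM in the controls. Of these 12 genes only Vm26Ab was called, lower. The chorion genes Cp15 to Cp38 among them were lower in knockdown 1 and control 1 than in knockdown 2 and control 2. Cp18 stood at 14.0 and 3259 TPM in the knockdown libraries and at 8.59 and 3779 TPM in the controls. Muscle markers summed to 520 and 424 TPM in the knockdown libraries and 794 and 353 TPM in the controls, and fat body markers to less than 1 TPM in each library. Hemocyte markers summed to 30.6 and 16.5 TPM in the knockdown libraries and to 6.81 and 3.25 TPM in the controls. Most of the hemocyte sum was Pxn, which was called higher, and Hml, NimC1 and eater were not called. The part of these cell types in the values below was not tested.

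The proteasome degrades proteins tagged with ubiquitin. Its core particle is a barrel made of stacked rings, outer ones of α subunits that gate the entrance and inner ones of β subunits, of which Prosbeta1, Prosbeta2 and Prosbeta5 carry the protease activities. Its regulatory particle binds the ubiquitin chain, removes it and feeds the unfolded protein into the barrel. The base of that particle holds the ATPases Rpt1 to Rpt6, the scaffold proteins Rpn1 and Rpn2 and the ubiquitin receptors Rpn10 and Rpn13, and the lid holds the deubiquitinase Rpn11 and its partners. Subunits of one particle are needed in fixed proportion. In Drosophila melanogaster several subunits have a second gene that is used in the male germline, and some of these genes carry a T in the symbol.

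All 32 subunit genes were expressed in each library, and they were among the more abundant transcripts. The median subunit stood at 279 and 288 TPM in knockdown 1 and knockdown 2 and at 191 and 209 TPM in control 1 and control 2. That median lay above 96.4% and 96.6% of all genes in the knockdown libraries and above 95.8% and 96.2% in the controls. Together the 32 genes took 0.928% and 0.960% of the TPM of the knockdown libraries and 0.673% and 0.705% of those of the controls. Apart from Prosalpha1, no subunit had fewer than 2252 counts in any library, and Rpn2 reached 22014.

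Per length, the median core subunit stood above the median regulatory subunit in each library. The core median was 364 and 365 TPM in the knockdown libraries and 270 and 273 TPM in the controls. The regulatory median was 232 and 251 TPM in the knockdown libraries and 171 and 178 TPM in the controls. The ratio of these medians was 1.57 and 1.46 in the knockdown libraries and 1.59 and 1.53 in the controls. The summed TPM of the 14 core subunits exceeded that of the 18 regulatory subunits by a smaller factor, 1.10 and 1.06 in the knockdown libraries and 1.14 and 1.08 in the controls. The ranges of the groups overlapped in the ratio of the sums. With 2 libraries a group, an exact permutation test cannot go below p = 0.333 (two-sided), so no test was run on either ratio.

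**Figure D1:**
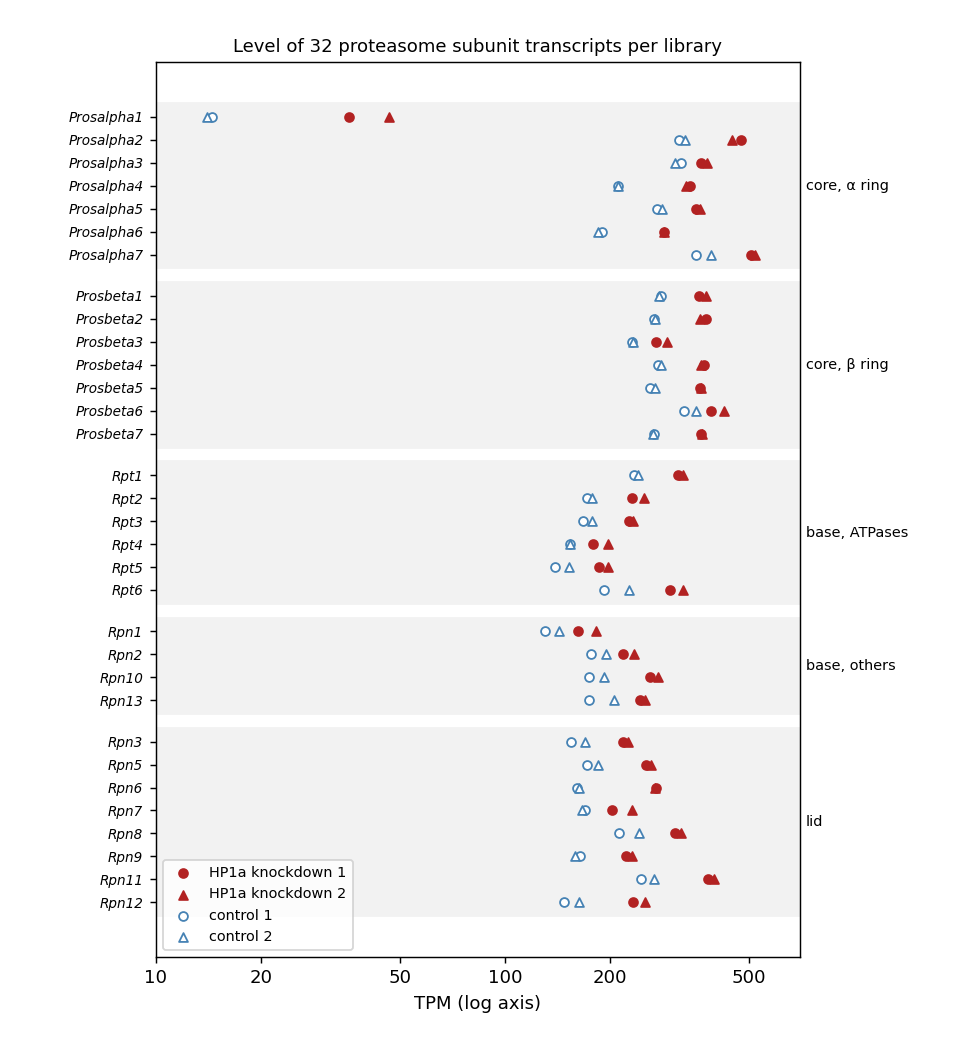
Level of each of the 32 subunit transcripts in TPM (log axis), with knockdown libraries as filled red symbols and controls as open blue symbols, one symbol per library, grouped by place in the particle. Prosalpha1 stands far below the rest in each library, the other core subunits lie mostly to the right of the regulatory ones, and the red symbols lie to the right of the blue ones for all 32 genes, a shift that 66.1% of all tested genes share.

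The plot of levels also shows how much the subunits of one particle differ among themselves. The β ring was the most even, from 271 (Prosbeta3) to 391 TPM (Prosbeta6) in knockdown 1, from 291 to 426 TPM in knockdown 2, from 231 to 327 TPM in control 1 and from 233 to 355 TPM in control 2. Its coefficient of variation between members was 11.0% and 10.8% in the knockdown libraries and 10.5% and 13.3% in the controls. The 18 regulatory subunits varied by 22.1% and 20.8% in the knockdown libraries and by 17.3% and 19.0% in the controls. The 13 core subunits other than Prosalpha1 varied by 17.2% and 16.6% in the knockdown libraries and by 16.9% and 19.8% in the controls.

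The order of levels was much the same in the libraries. Spearman's rank correlation over the 32 subunits was 0.982 between the knockdown libraries, 0.987 between the controls and 0.928 to 0.946 across the groups, as a description over genes that share the same libraries and lengths. Prosalpha7, of the α ring, was the highest subunit in every library, at 508 and 520 TPM in the knockdown libraries and 353 and 390 TPM in the controls. Among regulatory subunits Rpn11, the deubiquitinase that removes the ubiquitin chain, was the highest, at 382 and 397 TPM in the knockdown libraries and 246 and 268 TPM in the controls. Rpn1, the scaffold that binds ubiquitin-like shuttle proteins, stood at 162 and 183 TPM in the knockdown libraries and 130 and 143 TPM in the controls. It was the lowest regulatory subunit in 4 of 4 libraries.

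Between the groups, the proteasome subunits barely moved in scaled counts. Of the 48 members, 35 had enough counts to be tested, and 2 of these (5.71%) passed an adjusted p of 0.05 in edgeR's quasi-likelihood test, against 27.9% of the 8798 genes tested. The calls were Prosalpha1, higher in the knockdown libraries (11.8% of all tested genes were called higher), and the paralog Rpn13R, lower (16.1% were called lower). Whether either of the 2 shares reads with another gene was not tested, and their values are given below. Rpn13R had enough counts for testing only in the controls. The median log2 fold change, knockdown minus control, was -0.07 for the 32 subunits and 0.02 for all tested genes. At an unadjusted p of 0.05, 3 of the 35 members passed, against 48.1% of all tested genes.

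The subunits lay close together. Without Prosalpha1, the log2 fold changes ran from -0.28 to 0.23, and 31 of the 32 subunits (96.9%) lay within 0.3 of zero, a bound chosen after the values were seen, against 32.7% of all tested genes. The quartiles of all tested genes were -0.54 and 0.45. The standard errors of the subunits ran from 0.10 to 0.21. The 95% intervals included zero for 30 of the 32, and those of the 31 subunits other than Prosalpha1 all lay between -0.59 and 0.50.

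**Figure D2:**
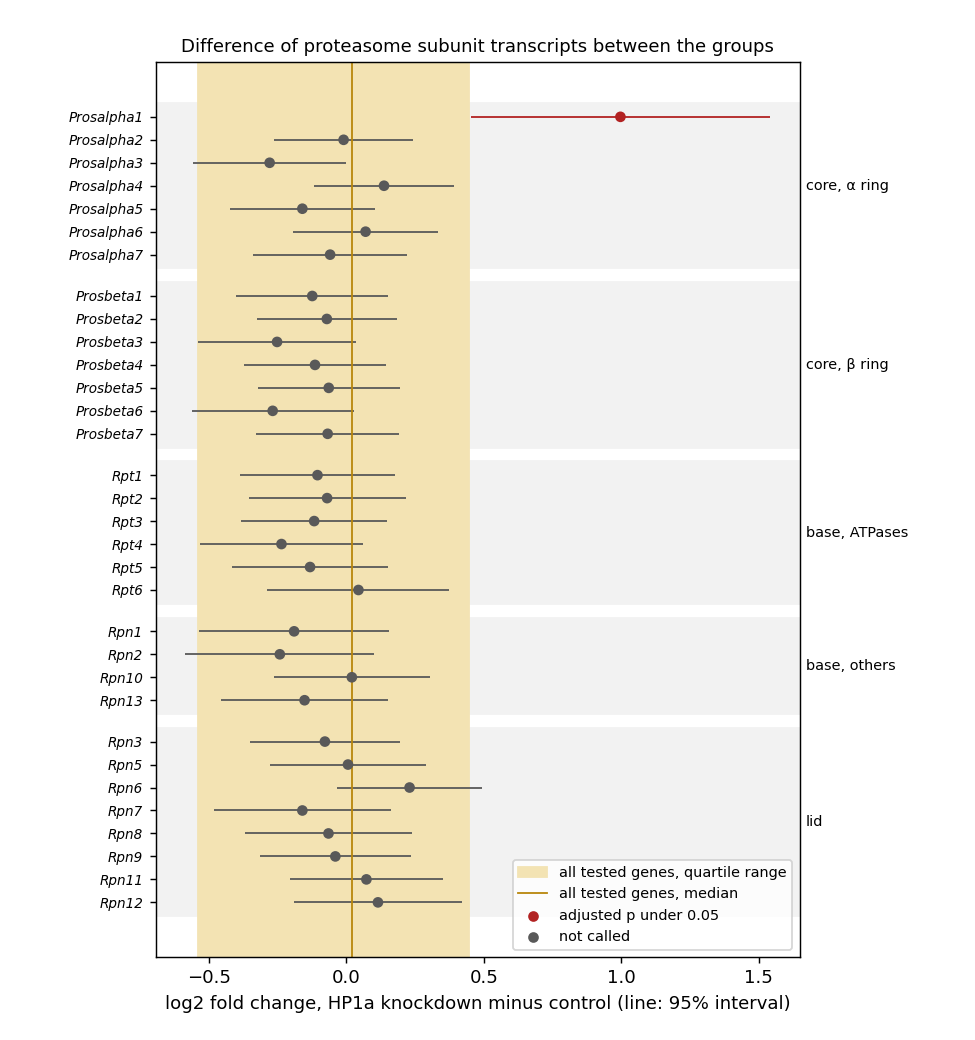
Log2 fold change of each subunit, knockdown minus control, as a point with its 95% interval from the edgeR fit, grouped by place in the particle, with the median (line) and quartile range (band) of all 8798 tested genes. Prosalpha1 (red) is the only subunit called. The other 31 points lie between -0.28 and 0.23, inside the band.

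Core and regulatory particle did not part from each other. Over the tested members, the median log2 fold change was -0.07 for the 15 core genes and -0.07 for the 20 regulatory genes, a difference of 0.003. That is less than the 0.076 by which this difference varied between replicates (SD of the difference of median log2 CPM). Of the tested core genes 1 (6.67%) was called and of the tested regulatory genes 1 (5.0%). In summed CPM, the 14 core subunits came to 2514 and 2641 in the knockdown libraries and to 2750 and 2727 in the controls. The 18 regulatory subunits came to 4318 and 4743 CPM in the knockdown libraries and to 4658 and 4877 CPM in the controls. The sums of the core subunits did not overlap between the groups, and those of the regulatory subunits did. Of all tested genes, taken singly, 77.0% did not overlap. In TPM the sums of both particles were higher in both knockdown libraries than in either control.

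Within the core, the β ring leaned lower. All 7 β subunits had a lower CPM in both knockdown libraries than in either control, as did 37.7% of all tested genes, and none was called. Their log2 fold changes ran from -0.27 to -0.06 with a median of -0.11. This sign depended on the scale, and 2 of the 7 stayed negative with library size alone and 0 of 7 on TPM. The α subunits went both ways, with 2 of 7 lower without overlap, 3 higher without overlap (39.3% of all tested genes were) and a median of -0.01.

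The 3 catalytic subunits differed little between the groups. Prosbeta1, the caspase-like subunit, stood at 156 and 170 CPM in the knockdown libraries and at 181 and 174 CPM in the controls. Prosbeta2, the trypsin-like subunit, stood at 213 and 212 CPM in the knockdown libraries and 226 and 221 CPM in the controls. Prosbeta5, the chymotrypsin-like subunit, stood at 221 and 232 CPM in the knockdown libraries and 237 and 237 CPM in the controls. All 3 were lower in both knockdown libraries than in either control, as were 37.7% of all tested genes. None of the differences passed the threshold. The edgeR log2 fold changes were -0.12 (SE 0.11, adjusted p = 0.401), -0.07 (SE 0.10, adjusted p = 0.606) and -0.06 (SE 0.10, adjusted p = 0.649), in the same order. Their sign depended on the scale, and all 3 were positive with library size alone and on TPM.

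The largest differences among core subunits other than Prosalpha1 were those of Prosalpha3, Prosbeta6 and Prosbeta3, structural members of the rings. Prosalpha3 stood at 190 and 205 CPM in the knockdown libraries and at 248 and 232 CPM in the controls (log2 fold change -0.28, 95% interval -0.557 to -0.001, edgeR adjusted p = 0.103). Prosbeta6 stood at 195 and 220 CPM in the knockdown libraries and at 244 and 256 CPM in the controls (log2 fold change -0.27, edgeR adjusted p = 0.127). Prosbeta3 stood at 130 and 144 CPM in the knockdown libraries and at 165 and 161 CPM in the controls (log2 fold change -0.25, edgeR adjusted p = 0.136). In each of the 3 the groups did not overlap, as for 77.0% of all tested genes, and none passed the threshold. Prosalpha4, of the α ring, lay on the other side, at 227 and 228 CPM in the knockdown libraries and 210 and 203 CPM in the controls (log2 fold change 0.14, edgeR adjusted p = 0.322).

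The remaining core subunits kept to the same narrow band. In the α ring, the log2 fold changes were -0.01 for Prosalpha2, -0.16 for Prosalpha5, 0.07 for Prosalpha6 and -0.06 for Prosalpha7. In the β ring, they were -0.11 for Prosbeta4 and -0.07 for Prosbeta7. None of these passed in edgeR, with adjusted p from 0.268 (Prosalpha5) to 0.942 (Prosalpha2).

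In the regulatory particle, Rpn2, a scaffold of the base, stood at 485 and 540 CPM in the knockdown libraries and at 584 and 628 CPM in the controls (log2 fold change -0.24, SE 0.14, edgeR adjusted p = 0.209). Rpt4, one of the ATPases, stood at 157 and 179 CPM in the knockdown libraries and at 201 and 195 CPM in the controls (log2 fold change -0.24, SE 0.12, edgeR adjusted p = 0.169). In both genes knockdown 1 was the lowest library. Over the 6 ATPases the median was -0.11, with 5 negative and none called, and over the 4 other base subunits it was -0.17 with 3 negative.

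The ubiquitin receptors of the base differed little. Rpn10 had 261 and 274 TPM in the knockdown libraries and 174 and 192 TPM in the controls, and a log2 fold change in scaled counts of 0.02 (SE 0.11, edgeR adjusted p = 0.897). Rpn13 had 245 and 252 TPM in the knockdown libraries and 174 and 206 TPM in the controls, and a log2 fold change in scaled counts of -0.15 (SE 0.12, edgeR adjusted p = 0.351). The other ATPases had log2 fold changes of -0.11 (Rpt1), -0.07 (Rpt2), -0.12 (Rpt3) and -0.13 (Rpt5), and the scaffold gene Rpn1 one of -0.19. None of these 5 passed.

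The lid had a median of -0.02 over 8 subunits, 4 of them negative. Rpn6, a lid subunit that bridges to the core, had the highest log2 fold change among the regulatory subunits, with 300 and 308 CPM in the knockdown libraries and 263 and 256 CPM in the controls. The groups did not overlap, but the gene did not pass (log2 fold change 0.23, SE 0.10, edgeR adjusted p = 0.140). The mean transcript length given for Rpn6 varied by 1.22-fold between libraries. With effective lengths as offsets its log2 fold change was 0.44 (adjusted p = 0.0426), and with library size alone 0.47 (adjusted p = 0.0243). Of the other lid genes, Rpn3 had a log2 fold change of -0.08, Rpn5 of 0.01, Rpn7 of -0.16, Rpn8 of -0.06 and Rpn9 of -0.04, and none passed. Rpn11, Rpn12 and Rpt6 had log2 fold changes of 0.07, 0.12 and 0.04, with overlapping groups in all 3.

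Prosalpha1 was the exception among subunits, and it lies close to Prosalpha1R. Both genes lie on 2R with 1 gene, CG18853, between them in the Release 6 gene order, and the names given to them there are those of the same α ring subunit. They are treated here as copies on that ground alone, since their sequences were not compared, and how far reads were split between them was not tested. Prosalpha1 had 377 and 1000 counts in the knockdown libraries and 208 and 212 counts in the controls. That is 18.2 and 24.5 CPM in the knockdown libraries and 10.9 and 10.5 CPM in the controls, a log2 fold change of 1.00 (SE 0.21, adjusted p = 0.0328, edgeR), or 2.0-fold. Prosalpha1R had 305 and 333 CPM in the knockdown libraries and 352 and 354 CPM in the controls (log2 fold change -0.15, SE 0.12, edgeR adjusted p = 0.348). Despite its symbol, Prosalpha1R was thus expressed like a subunit, at 642 and 678 TPM in the knockdown libraries and 500 and 518 TPM in the controls, above every gene of the subunit class.

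Prosalpha1 received 5.65% and 6.87% of the counts of the pair in the knockdown libraries and 3.01% and 2.89% in the controls. The pair summed to 323 and 357 CPM in the knockdown libraries and to 363 and 365 CPM in the controls. With the 2 genes counted as 1, an alternative chosen after the data were seen, the log2 fold change was -0.10 (adjusted p = 0.547, edgeR) and no subunit was called. For Prosalpha1 alone the log2 fold change was 1.21 without knockdown 1 and 0.78 without knockdown 2. The gene was called in neither fit, where the knockdown group has a single library and far fewer of all tested genes were called. The neighbours that overlap the pair were phr, which overlaps Prosalpha1 and stood at 90.8 and 90.3 CPM in the knockdown libraries and 80.2 and 78.3 CPM in the controls, and CG18853, which overlaps Prosalpha1R and stood at 52.3 and 48.8 CPM in the knockdown libraries and 76.6 and 70.8 CPM in the controls (log2 fold change -0.54, edgeR adjusted p = 0.0348). Whether the crossed lines differ at these genes was not tested.

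Of the 16 paralogs, 8 had 0 counts in all 4 libraries. They are Prosalpha3T, Prosalpha4T1, Prosalpha4T2 and Prosalpha6T, with a T in the symbol, and Prosbeta4R1, Prosbeta4R2, Prosbeta5R1 and Rpt4R, with an R. A count of 0 allows up to 3 counts, or 0.161 and 0.0783 per 1000000 in knockdown 1 and knockdown 2 and 0.145 and 0.137 in control 1 and control 2, by counting error only. Another 5 (Prosbeta2R1, Prosbeta2R2, Prosbeta5R2, Rpn12R and Rpt6R) had between 2 and 15 counts over all libraries. Prosbeta2R2, a relative of the trypsin-like subunit, led these with 7 and 6 counts in the knockdown libraries and 2 and 0 in the controls. None of these 5 had enough counts to be tested.

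The 15 paralogs other than Prosalpha1R summed to 3.30 and 2.18 TPM in the knockdown libraries and to 2.93 and 2.92 TPM in the controls, while the 32 subunits summed to 9275 and 9597 TPM in the knockdown libraries and 6731 and 7052 TPM in the controls. Of 14 testis markers measured, 6 or 7 were at 0 in each library. One of them, twe, a phosphatase gene that female germ cells also use, was called higher (log2 fold change 1.46, edgeR adjusted p = 0.0361). It stood at 104.3 and 103.5 TPM in the knockdown libraries and 16.9 and 35.4 TPM in the controls. Without twe, the 13 others summed to 1.59 and 0.927 TPM in the knockdown libraries and 3.65 and 2.12 TPM in the controls. Among these, fzo was called lower (log2 fold change -2.76, edgeR adjusted p = 0.0239), and mia was tested and not called.

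**Figure D3:**
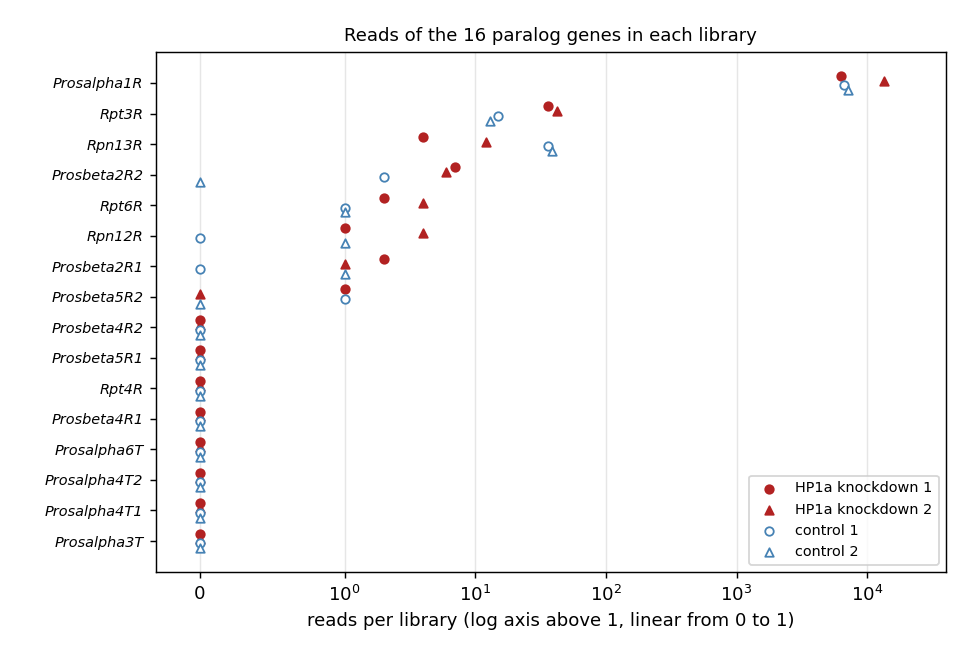
Reads of the 16 paralog genes in each library (log axis above 1, linear from 0 to 1), not scaled for depth, with knockdown libraries in red and controls in blue. Prosalpha1R stands at 6294 reads or more, Rpt3R and Rpn13R between 4 and 42 reads, and the remaining 13 genes at 7 reads or fewer, of which 8 are at 0 throughout.

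The plot of reads leaves Rpn13R and Rpt3R as the paralogs with low but measurable counts. Rpn13R, a relative of the ubiquitin receptor gene Rpn13 on the X chromosome, had 4 and 12 counts in the knockdown libraries and 36 and 39 in the controls. It was lower by 7.49-fold (log2 fold change -2.91, SE 0.51, adjusted p = 0.0252, edgeR). The groups did not overlap, and 37.7% of all tested genes were likewise lower without overlap. Only its control counts were high enough for the gene to be tested, and its knockdown counts were near the floor. In the Release 6 gene table Rpn13R overlaps the gene rg, which was lower too (2.42-fold, edgeR adjusted p = 0.0217). The gene rg stood at 88.2 and 104 CPM in the knockdown libraries and 238 and 229 CPM in the controls. The overlap of Rpn13R and rg is one of gene spans, whatever their exons or strands. Whether reads were assigned by strand is not given in the sources used here, and whether the 2 genes share reads was not tested. The log2 fold change of Rpn13R was -2.66 without knockdown 1 and -3.25 without knockdown 2. It was called in neither fit, where the knockdown group has a single library and far fewer of all tested genes were called.

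Rpt3R, a relative of the ATPase gene Rpt3, had 36 and 42 counts in the knockdown libraries and 15 and 13 in the controls, or 1.74 and 1.03 CPM in the knockdown libraries and 0.789 and 0.645 CPM in the controls. Both knockdown libraries were higher, but the gene did not pass (log2 fold change 0.93, SE 0.51, edgeR adjusted p = 0.206). It overlaps Alg12, at 25.1 and 24.4 CPM in the knockdown libraries and 29.4 and 28.5 CPM in the controls.

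Shared positions touch the subunits as well. Of the 32 subunits, 16 overlap at least 1 other gene of the tables by gene span in the Release 6 annotation, whatever the exons or strand. Of the 17 partners 3 were called lower and 2 higher, shares close to the 16.1% and 11.8% of all tested genes. Slik, which overlaps the lid gene Rpn8, stood at 295 and 318 CPM in the knockdown libraries and 365 and 342 CPM in the controls, more than Rpn8 in each library. CG11980, which overlaps Prosbeta3, was lower (log2 fold change -0.76, edgeR adjusted p = 0.0241), at 111 and 119 CPM in the knockdown libraries and 209 and 181 CPM in the controls. The part of overlapping reads in these values was not tested.

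The direction of the subunits depended on the scale. On TPM, which sum to 1000000 in each library, all 32 subunits were higher in both knockdown libraries than in either control, as were 66.1% of all tested genes. With limma-trend on log2(TPM + 1), 28 of the 32 were called higher, against 50.1% of all tested genes, and their median was 0.46 beside 0.50 for all tested genes. With library size alone, 3 were called higher (29.3% of all tested genes were), and the medians were 0.16 for the subunits and 0.25 for all tested genes. Relative to the median of all tested genes the subunits stood at -0.09 in the values reported here, at -0.09 with library size alone and at -0.045 on TPM. Leaving out knockdown 1 put this distance at -0.039 and leaving out knockdown 2 at -0.144, and it lay between these when either control was left out.

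**Figure D4:**
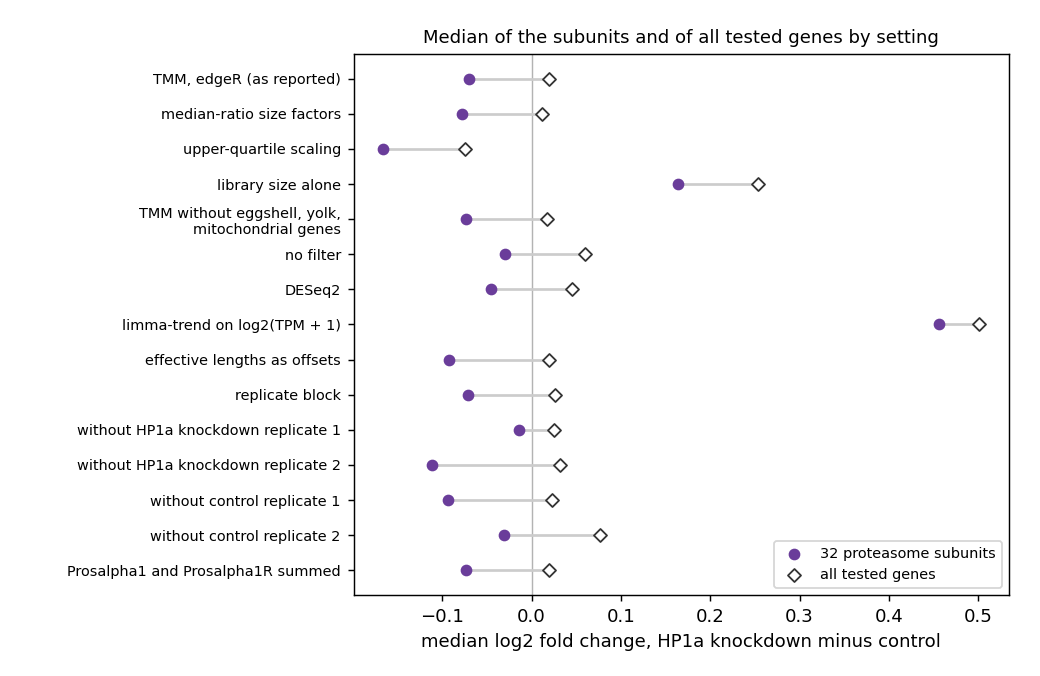
Median log2 fold change, knockdown minus control, of the 32 subunits (filled circles) and of all genes tested as reported (open diamonds) under each scale, test and left-out library. The medians of the subunits and of all genes are -0.17 and -0.07 with upper-quartile scaling and 0.46 and 0.50 on TPM. The circle lies left of the diamond in each row, by a gap that varies and is widest without knockdown 2.

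Genes around the proteasome were followed through a list of 42, covering assembly, shuttle and unfolding factors, ubiquitin genes, conjugating enzymes, cullin ligases, the COP9 signalosome and the regulator cnc. Of these, 39 were matched and all were tested. In edgeR 4 (10.3%) were called lower and 0 higher, against 16.1% and 11.8% of all tested genes, with a median log2 fold change of 0.05. The number called in the list moved when a library was left out, as did the number called over all tested genes.

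The clearest falls were in the genes that encode ubiquitin fused to a ribosomal protein. RpS27A stood at 735 and 768 CPM in the knockdown libraries and 1773 and 1513 CPM in the controls (log2 fold change -1.13, SE 0.15, edgeR adjusted p = 0.0219). RpL40 stood at 875 and 901 CPM in the knockdown libraries and 1896 and 1405 CPM in the controls (log2 fold change -0.89, SE 0.19, edgeR adjusted p = 0.0328). In both genes every knockdown library lay below every control, as for 37.7% of all tested genes. The polyubiquitin gene Ubi-p5E went the other way without passing, at 966 and 976 CPM in the knockdown libraries and 389 and 654 CPM in the controls (log2 fold change 0.90, edgeR adjusted p = 0.0577).

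Cul3, the scaffold of a cullin ligase, stood at 119 and 128 CPM in the knockdown libraries and 187 and 160 CPM in the controls (log2 fold change -0.49, edgeR adjusted p = 0.0456). Roc1a, a RING subunit of cullin ligases, stood at 166 and 173 CPM in the knockdown libraries and 245 and 213 CPM in the controls (log2 fold change -0.44, edgeR adjusted p = 0.0493). Both passed narrowly. The next genes by adjusted p did not pass. They were, with their log2 fold changes, the shuttle gene Rad23 (0.49, adjusted p = 0.0501), Keap1, an adaptor of Cul3 (-0.89, adjusted p = 0.0549), Pomp, a chaperone of core assembly (-0.43, adjusted p = 0.0577), the conjugating enzyme gene eff (0.42, adjusted p = 0.0647), the proteasome regulator PI31 (0.38, adjusted p = 0.070), and the COP9 signalosome genes CSN8 (-0.44, adjusted p = 0.0741) and CSN5 (-0.30, adjusted p = 0.106). The gene cnc, a transcription factor known to activate proteasome genes in flies and named here after its value was seen, stood at 392 and 405 CPM in the knockdown libraries and 378 and 371 CPM in the controls (log2 fold change 0.09, SE 0.11, edgeR adjusted p = 0.563).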

How the data were processed

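Poly(A)+ RNA of about 100 ovaries per library was read as single-end reads of 50 nt, 19 to 39 M reads per library per the labels' protocols. The deposited tables hold expected counts per gene, not normalized, and TPM, which the authors deposited beside lengths. Salmon, HISAT2, DESeq2 and HTSeq and the builds dm3 and BDGP5 are listed in the submitters' processing notes, without versions or roles. Symbols were matched for 13484 of 13776 gene IDs. Chromosome arms and gene order are of Release 6.

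Expected counts rounded to whole numbers were compared with edgeR 4.0.16 in R 4.3.3 (filterByExpr, TMM factors 1.11, 1.06, 0.922 and 0.922 for knockdown 1, knockdown 2, control 1 and control 2, quasi-likelihood F test, Benjamini-Hochberg over 8798 genes, threshold 0.05). The fit was tested on simulated data with 200 changed genes. There it missed most changes of 1 in log2 fold change and found most changes of 2. Far more genes were called in the data (2455 of 8798), so these rates need not hold for the genes described here. A gene not called may still differ. For the subunits other than Prosalpha1, the intervals of the log2 fold change lay between -0.59 and 0.50. Standard errors were derived from the fold change and its F statistic, and intervals from the t distribution. Alternatives used limma 3.58.1, DESeq2 1.42.0, other scales, no filter, a replicate block and libraries left out.

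The labels call the 2 libraries of a group biological replicates without saying what separates them, so p-values measure the spread between these samples. Members and lists were chosen with earlier results of these data known. Given in full are the 8 tested members with the largest changes, the 8 with the smallest adjusted p, the catalytic subunits and paralogs with at least 10 counts, and up to 12 genes of the other list by adjusted p. Other members named were added with their values in view. The HP1 domains were not used here, and a planned count of promoter motifs was not run.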

Additional observations from a re-analysis of the deposited data

How the results depend on the processing

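Of 181 values of 13 named members under 14 alternatives (13 planned, 1 added after the data were seen), 159 kept direction and side of the threshold, 14 changed sign, and each sign change but one came with library size alone or TPM. The core and regulatory medians were -0.17 and -0.17 with upper-quartile scaling, 0.17 and 0.16 with library size alone and 0.46 and 0.45 on TPM, and with a library left out they ran from -0.09 to -0.04 and from -0.13 to 0.00. Their difference stayed within the spread between replicates in each alternative. On TPM, values were 0.37 (Prosalpha1R), 0.25 (Prosalpha3), 0.40 (Prosbeta1), 0.46 (Prosbeta2), 0.28 (Prosbeta3), 0.46 (Prosbeta5), 0.26 (Prosbeta6), 0.28 (Rpn2) and 0.29 (Rpt4). With library size alone they were 0.086 (Prosalpha1R), 0.11 (Prosbeta1), 0.17 (Prosbeta2) and 0.17 (Prosbeta5). With the copies summed, Prosalpha1 was at -0.10. Members called higher numbered 1 as reported, 3 with library size alone (29.3% of all tested genes were) and 30 on TPM (50.1%). They numbered 2 with effective lengths (913 of 8798 genes were) and 0 with the copies summed. Members called lower numbered 0 to 1 with a library left out. Over all genes the calls were 5070 on TPM and 220 to 4543 with a library left out, when 1 group has a single library that is assumed to vary like the other group. In the other list, 14 were called with library size alone, 2 without a filter, 9 with DESeq2, 27 on TPM and 0 to 19 with a library left out. The causes were not tested. The TPM ratio of core to regulatory genes in knockdown 1, knockdown 2, control 1 and control 2 was 1.57, 1.46, 1.59 and 1.53 by medians, and 1.25, 1.20, 1.30 and 1.24 with Prosalpha1R added to the core sum.

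With the replicate number as a block, 3713 genes were called against 2455 without it, and 8 genes of the other list against 4, while 1 member was called higher and 1 lower as before. The deviations of libraries with the same number correlated at 0.503 across genes, a hint from the data, since the labels do not say that a number marks a shared batch.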
